A study of Mus musculus with 21 samples.

Results

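Interferon-stimulated genes were followed in RNA from FACS-sorted mouse Paneth cells. A list of 48 names covered 47 distinct genes, since Ddx58 and Rigi are names of the same gene, given here as Rigi. A gene was kept when 10 or more counts were present in 3 or more libraries, which left 44 of 47. Ifit3 and Mx1, each with 1 library at that level, and Mx2, with 2 such libraries, fell just outside. Gbp2, with 3 such libraries, fell just inside and reached 10 counts only after antibiotics. Of the 44 genes, 42 also passed the expression filter of the test, and Gbp2 and Rsad2 did not. These 42 stood among 13070 genes tested, out of 55414 identifiers in the counts table.

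The series compared zinc with plain water in 3 microbiome contexts, as bulk RNA-seq of 21 libraries. Mice drank Milli-Q water (MQ) or water with 200 mM ZnSO4 (Zn) for 7 weeks. They were specific pathogen-free (SPF), SPF with broad spectrum antibiotics during the last 3 weeks (ABX), or germ-free (GF). SPF MQ, SPF Zn and GF MQ had 3 libraries each, and ABX MQ, ABX Zn and GF Zn had 4 each. Every group thus shared 7 weeks on its water, and the antibiotic groups were raised with microbes that were depleted late, whereas germ-free mice never carried any. The design describes the libraries as biological replicates. Strain, age and the agents of the antibiotic mixture are not in the labels.

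Interferons are secreted proteins that signal through receptors and JAK kinases to transcription factors. Type I and type III interferons act on the interferon-stimulated response element (ISRE) through a complex that contains STAT2 and IRF9, and interferon-γ acts on the gamma-activated site (GAS). The induced genes encode RNA sensors, enzymes that degrade or modify viral RNA, the ubiquitin-like ISG15, membrane proteins that block virus entry, GTPases that act on pathogen vacuoles, and the machinery that presents peptides on MHC class I. In the intestinal epithelium, part of this program is known to depend on signals from microbes.

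Of the 44 members, 34 were matched by symbol to a RefSeq table of promoters (GRCm38.p6), each window running from 250 bases before to 50 bases after the gene's start. The ISRE core GAAANNGAAA, searched on both strands, was present in 18 of these 34 genes (52.9%) and in 1079 of all 27025 genes in that table (3.99%). The GAS-type palindrome TTCNNNGAA was present in 11 of 34 (32.4%), against 9.55% of all genes. All 5 matched GTPases (Gbp2, Gbp3, Gbp7, Igtp and Irgm1), Isg15 and 4 of 6 membrane and nucleotide effectors carried the ISRE core. It was found in 1 of 5 matched genes of class I presentation, B2m, and in 1 of 5 signalling genes, Stat2. A match describes letters in this window and says nothing of binding.

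The windows printed here belong to members whose levels are described in the following paragraphs. Each is 30 bases long, written 5′ to 3′ on the strand of the gene, with the ISRE core in capitals, and was placed on GRCm39 by an exact match. Where the core lies on the other strand, the capitals show its reverse complement. Counted from the start that RefSeq gives, the core in capitals starts 72 bases before it in Isg15, 85 in Ifit1 and 14 in Oas1a. In Bst2, Igtp, Gbp7 and B2m it starts 124, 34, 53 and 139 bases before, and in Ifitm3 20 bases after. Isg15 also carried cores starting 78 and 66 bases before, Ifit1 at 104, Oas1a at 20 and Bst2 at 130 before, and Ifitm3 at 3 after. Those of Isg15, Oas1a and Bst2 overlap the core in capitals and are printed partly in lower case. Gene starts in GENCODE M39, used for all other coordinates, differ, and the cores of Igtp, B2m, Oas1a, Ifitm3 and Gbp7 lie inside the gene there.
Isg15, chr4:156285328-156285357, minus strand: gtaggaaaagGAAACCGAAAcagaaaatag
Ifit1, chr19:34618194-34618223, plus strand: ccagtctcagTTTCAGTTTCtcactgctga
Oas1a, chr5:121045583-121045612, minus strand: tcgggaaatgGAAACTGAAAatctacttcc
Bst2, chr8:71990221-71990250, minus strand: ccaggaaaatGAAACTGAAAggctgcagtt
Ifitm3, chr7:140590619-140590648, minus strand: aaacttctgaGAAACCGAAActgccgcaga
Igtp, chr11:58090338-58090367, plus strand: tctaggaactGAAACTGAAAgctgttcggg
Gbp7, chr3:142236034-142236063, plus strand: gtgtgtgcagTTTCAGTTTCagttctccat
B2m, chr2:121978019-121978048, plus strand: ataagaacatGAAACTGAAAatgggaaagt

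Library totals ran from 9888174 to 16896714 counts. α-Defensin (Defa) genes took 39.4 to 44.5% of counts in germ-free libraries and 24.2 to 36.4% in the others, and the factors of the TMM scaling were 0.523 to 0.834 in germ-free libraries and 0.996 to 1.49 in the others. Values are given as CPM after this scaling, that is counts per library brought to a common size. The labelled cell type was checked by 9 Paneth cell markers, and all 9 were detected. After TMM scaling all 9 were higher in GF MQ than in SPF MQ. The low factors of germ-free libraries raise every CPM value there, so this direction depends on the scaling. A comparison of these markers under library totals is not given here. Summed lymphocyte and general immune markers (13 genes) were at most 3.83 CPM in any library, with Cd8b1 at 0 throughout, and 10 myeloid markers summed to 4.42 to 20.7 CPM, with Csf1r at 0 throughout. One library, SPF Zn replicate 1, held 6228 Xist counts against at most 34 in every other library. The microbe-dependent lectin Reg3g fell by 4.53 on the log2 scale in ABX MQ and fell by 2.93 in GF MQ relative to SPF MQ. The zinc-responsive metallothionein Mt2 was higher on zinc by 5.87 in SPF, 5.65 after antibiotics and 4.39 in germ-free mice.

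A pair of libraries stood apart for the members. GF Zn replicate 4 was the highest of its group in 40 of 44 members (90.9%) but in 34.6% of all genes tested. GF MQ replicate 2 was the highest of its group in 34 of 44 (77.3%) but in 35.0% of all genes tested. The same share, 34 of 44, was found for SPF MQ replicate 2, against 36.2% of all genes, and its summed goblet cell markers (8 genes) were 7200 CPM, against 3689 and 3069 in the rest of SPF MQ, and its enteroendocrine markers (7 genes) 201 CPM, against 145 and 104. GF MQ replicate 1 was the lowest of its group in 36 of 44. Summed enterocyte markers (9 genes) were 1815 CPM in GF Zn replicate 4, against 426 to 853 in the rest of its group, and 952 CPM in GF MQ replicate 2, against 406 and 556. They were also high in SPF Zn, at 833 to 1551 CPM, where Irf7 stood at 7.98 to 11.9 CPM. Between groups, tuft cell markers (6 genes) summed to 101 to 117 CPM in GF MQ and 157 to 203 CPM in SPF MQ, and enteroendocrine markers to 55.8 to 78.7 and 104 to 201 CPM, both without overlap. The part of any of these markers in the members' levels was not tested. In sorted bulk samples, fewer cells of a type and less RNA per cell cannot be told apart.

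Per length of transcript, the members spanned a wide range. B2m, the constant chain of MHC class I, was the most abundant with a mean of 96.9 TPM, a length-corrected transcript share, over the libraries, above 99.3% of coding genes. The entry-blocking membrane proteins Ifitm2 and Ifitm3 followed at 41.7 and 29.7 TPM, then the peptide-loading chaperone Tapbp at 12.4, the ubiquitin ligase Trim25 at 12.1 and the transcription factor Irf1 at 11.7 TPM. At the other end stood Ifit1 at 0.0770, Rsad2 at 0.0759 and Gbp6 at 0.0614 TPM. The summed CPM of the 44 genes was 613 ± 50.6 (SD, n = 3) in SPF MQ, 646 ± 21.2 (n = 3) in SPF Zn, 779 ± 22.3 (n = 4) in ABX MQ, 588 ± 48.5 (n = 4) in ABX Zn, 901 ± 214 (n = 3) in GF MQ and 839 ± 266 (n = 4) in GF Zn.

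**Figure D1:**
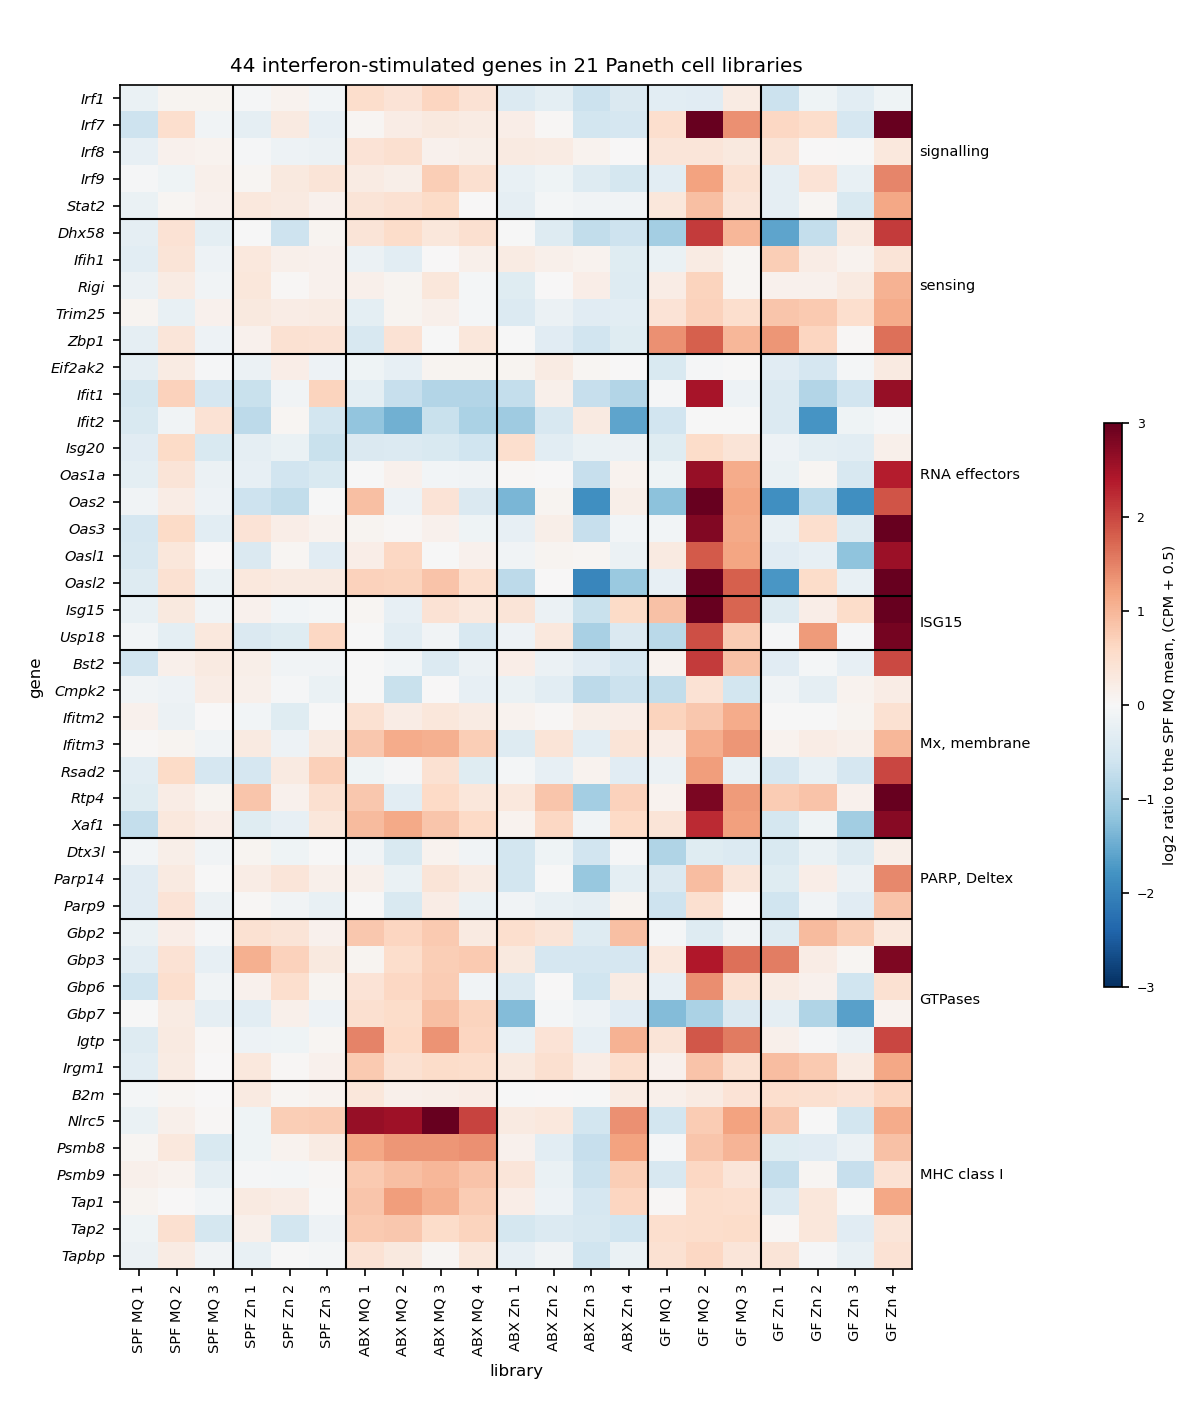
Level of each of the 44 members (rows) in each of the 21 libraries (columns), as log2 of (CPM + 0.5) over the SPF MQ mean + 0.5, with the colour limited to 3 in either direction. GF MQ replicate 2 and GF Zn replicate 4, the highest of their groups in 34 and 40 genes, stand out as columns of high values, and the block of class I presentation genes is high in the 4 ABX MQ libraries.

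The first question was whether loss of microbes lowered these genes. After antibiotics on Milli-Q water, no member was called lower, and 1 of 42 tested members, Nlrc5, was called higher at an adjusted p under 0.05, against 0.0459% of all genes called higher. The median log2 fold change was 0.31 for the tested members and -0.01 for all genes. In 15 of 42 the 4 ABX MQ libraries all lay above the 3 SPF MQ libraries, where 4.45% of all genes did so, and 1 member, Ifit2, lay below without overlap. Members with an unadjusted p under 0.05 numbered 12 of 42, against 8.13% of all genes.

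Class I presentation led these values. Nlrc5, the transactivator of MHC class I genes (chr8:95160984-95253900), stood at 0.136, 0.306 and 0.242 CPM in SPF MQ and at 3.95, 3.74, 5.56 and 2.48 CPM in ABX MQ. The groups were far apart, yet the SPF MQ libraries held only 2, 6 and 5 counts. The log2 fold change was 4.02 ± 0.83 (SE; edgeR quasi-likelihood test, adjusted p = 0.0359), and its size depends on the prior count at such low levels. The call was lost whichever of the 7 libraries was left out (highest adjusted p = 0.144), and without SPF MQ replicate 2 Tap2 was called in its place. Psmb8, a catalytic subunit of the immunoproteasome, stood at 11.8, 14.2 and 8.12 CPM in SPF MQ and at 26.1, 29.1, 29.1 and 30.4 in ABX MQ. All 4 antibiotic libraries were above all 3 SPF libraries, and the log2 fold change was 1.33 (edgeR quasi-likelihood, adjusted p = 0.146).

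The same separation without a call was seen for the peptide transporter subunits Tap1 (1.03, adjusted p = 0.146) and Tap2 (0.74, adjusted p = 0.244), for the immunoproteasome subunit Psmb9 (0.91, adjusted p = 0.293), for Ifitm3 (0.95, adjusted p = 0.131) and for Irf1 (0.50, adjusted p = 0.216), all by edgeR's quasi-likelihood test. Irgm1 and Igtp, GTPases of the immunity-related family, differed by 0.60 and 1.28, with adjusted p-values of 0.299 and 0.499. Irf9 and Oasl2 also lay apart without a call, at 14.2 to 21.2 and 5.54 to 7.24 CPM in ABX MQ against 11.5 to 13.9 and 2.79 to 5.36 in SPF MQ, while Irf7, Isg15 and Rigi overlapped. Irf7, the factor that amplifies interferon production, was 6.20, 14.0 and 8.99 CPM in SPF MQ and 10.2, 11.3, 12.0 and 11.6 in ABX MQ. Isg15 was 0.272 to 0.612 CPM in SPF MQ and 0.262 to 0.720 in ABX MQ, and the RNA sensor Rigi was 8.92 to 12.2 and 9.72 to 13.0 CPM. The highest and lowest values of these 3 genes crossed between the groups.

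**Figure D2:**
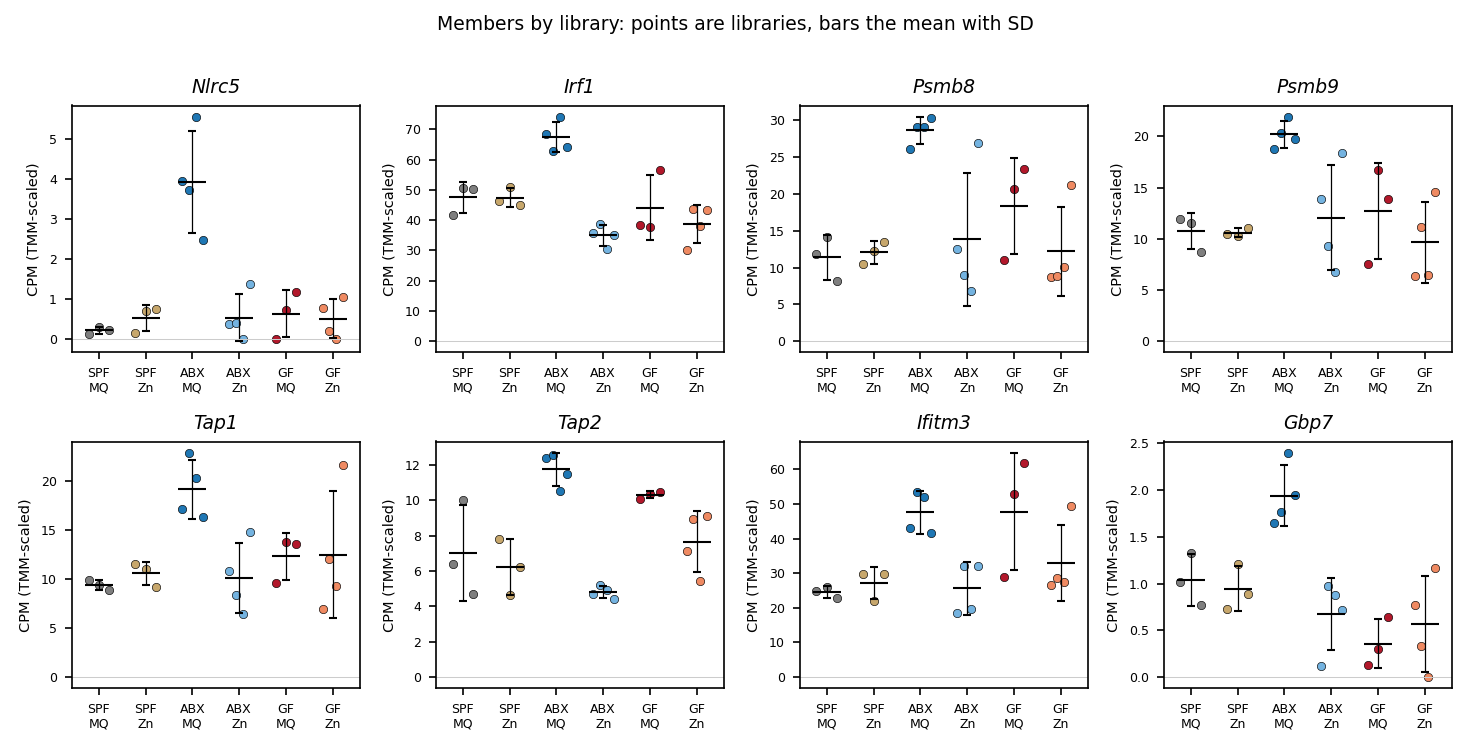
CPM (TMM-scaled) of 8 members in the 6 groups, with 1 point per library and bars for the mean and SD, which can pass below 0. In all 8 panels the 4 ABX MQ libraries sit above every SPF MQ library, and in each panel but that of Psmb8 they also sit above every ABX Zn library.

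In germ-free mice on Milli-Q water, 12 of 42 tested members were called higher than in SPF MQ and none lower, by edgeR's quasi-likelihood test with TMM scaling. Among all genes, 24.3% were called and 12.7% were called higher. The median log2 fold change was 0.64 for the members and -0.03 for all genes, and 36 of 42 were positive. In 13 members the germ-free libraries all lay above the SPF libraries, where 19.3% of all genes did so. The 12 genes were Ifitm2, Ifitm3, Rtp4, Zbp1, Trim25, Irf7, Isg15, Gbp3, Igtp, Oas1a, Oasl2 and Tapbp. By role, 3 of 6 membrane and nucleotide effectors, 2 of 5 sensing genes, 2 of 9 RNA-binding and RNA-degrading effectors, 2 of 5 GTPases, 1 of 5 signalling genes, 1 of 2 genes of the ISG15 system and 1 of 7 presentation genes were called, and none of 3 PARP and Deltex genes. In the same comparison 2 of 4 tested tuft cell markers were lower, and of 7 enteroendocrine markers 5 were lower and 1 higher, and their part in the result was not tested.

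Among the signalling genes, Irf7 was 14.0, 99.0 and 26.0 CPM in GF MQ, against 6.20, 14.0 and 8.99 in SPF MQ. The lowest germ-free and the highest SPF library were equal to 3 digits, and GF MQ replicate 2 was far above the rest of its group. The log2 fold change was 2.23 ± 0.65 (SE; adjusted p = 0.0162, edgeR quasi-likelihood). Irf7 (chr7:140842619-140846398) overlaps Phrf1 on the opposite strand, so its counts are uncertain if counting ignored strand. Stat2 was 22.9, 34.2 and 23.4 CPM in GF MQ and 15.6, 18.7 and 19.9 in SPF MQ, apart without overlap but not called (0.56, adjusted p = 0.136). Irf1 was 38.3, 37.7 and 56.5 CPM against 41.7, 50.7 and 50.3, with overlapping groups and a log2 fold change of -0.10.

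Of the sensors, Zbp1, which recognises Z-form nucleic acid, was 12.2, 16.4 and 9.31 CPM in GF MQ and 3.54, 5.76 and 3.87 in SPF MQ. All germ-free libraries were above all SPF libraries, by 1.51 ± 0.34 (SE; edgeR quasi-likelihood, adjusted p = 0.00270). Trim25, the ligase that activates RIG-I, was 76.5, 92.6 and 80.8 CPM against 60.5, 48.7 and 62.1 (0.54, adjusted p = 0.0102). Rigi itself was 12.0, 16.4 and 10.7 CPM against 8.92, 12.2 and 9.37, with overlapping groups and an adjusted p of 0.292.

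Calls among the 2′-5′-oligoadenylate synthetases and the related Oasl genes depended on single libraries. Oas1a was 5.96, 42.6 and 14.9 CPM in GF MQ against 5.31, 8.67 and 5.70 in SPF MQ. Oasl2 was 3.11, 41.1 and 14.3 CPM against 2.79, 5.36 and 3.24. For both, 1 germ-free library lay within the SPF range, and replicate 2 was the highest. The log2 fold changes were 1.67 (adjusted p = 0.0371) and 2.34 (adjusted p = 0.0430), and those of Oas2, Oas3 and Oasl1 were 2.24, 2.71 and 1.37 without passing the threshold of edgeR's test. Isg15 was 1.17, 6.80 and 2.57 CPM, or 9, 46 and 24 counts, against 0.272, 0.612 and 0.338 CPM, or 4, 12 and 7 counts. The groups did not overlap for Isg15 (3.04 ± 0.93 SE; edgeR quasi-likelihood, adjusted p = 0.0201). Ifit1, an RNA cap-binding effector, was 0.388, 4.59 and 0.321 CPM against 0.136, 0.969 and 0.145, with an adjusted p of 0.264.

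Among the membrane effectors, Ifitm2 and Ifitm3 were higher in each germ-free library. Ifitm2 was 51.5, 57.2 and 71.0 CPM in GF MQ and 35.6, 28.7 and 32.5 in SPF MQ. Ifitm3 was 28.9, 52.8 and 61.8 CPM against 25.0, 26.0 and 22.7. Both separated without overlap, by 0.89 ± 0.15 (SE; edgeR quasi-likelihood, adjusted p = 0.000203) and 0.96 ± 0.26 (adjusted p = 0.00942). Igtp, a vacuole-targeting GTPase that overlaps Irgm2 on the same strand, was 2.33, 7.40 and 5.89 CPM against 1.16, 2.14 and 1.74 (1.61, adjusted p = 0.0372). B2m was 177, 189 and 213 CPM against 154, 166 and 161 and was not called (0.27, adjusted p = 0.107).

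**Figure D3:**
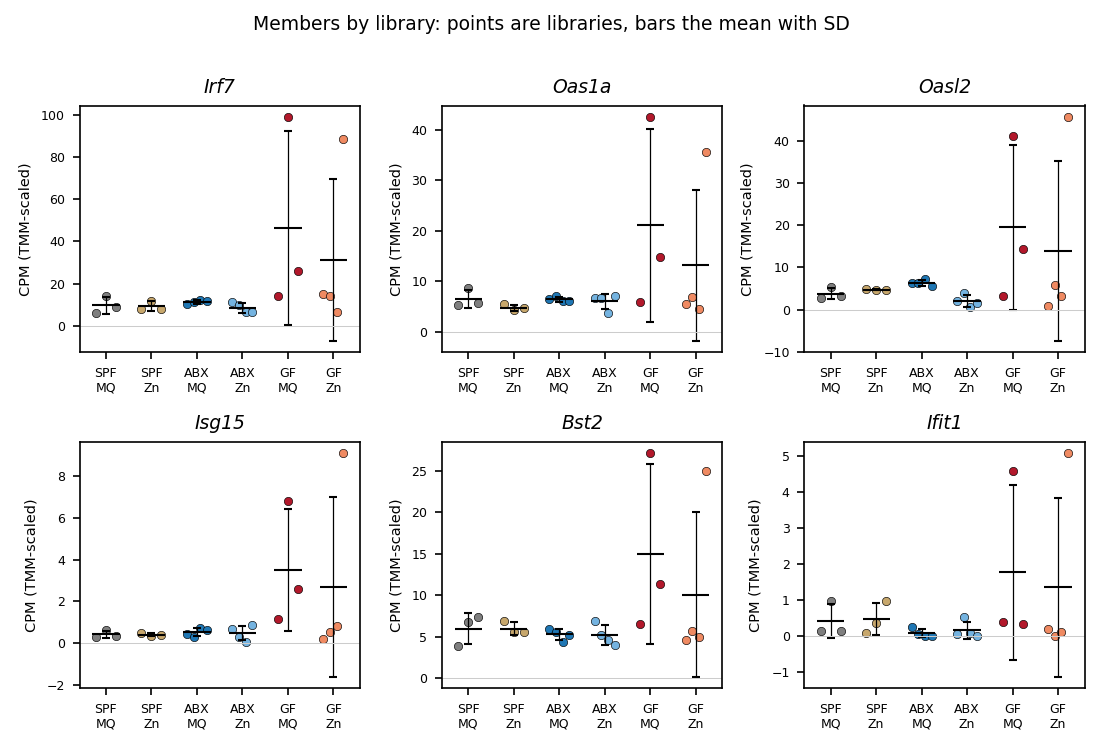
CPM (TMM-scaled) of Irf7, Oas1a, Oasl2, Isg15, Bst2 and Ifit1 in the 6 groups, with 1 point per library and bars for the mean and SD, which can pass below 0. In each panel 1 GF MQ library and 1 GF Zn library lie far above the rest, at 99.0 and 88.5 CPM for Irf7.

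How many members were called in germ-free mice varied from 3 to 15 with the library left out, and was lowest without GF MQ replicate 2. Without that library 3 members were called higher, Ifitm2, Zbp1 and Ifitm3, and the members' median was 0.37. Without SPF MQ replicate 1 or 3, 4 and 5 members were called, and without GF MQ replicate 3, 6 were. With both GF MQ replicate 2 and GF Zn replicate 4 left out, a choice made after seeing the data, 6 were called higher (Ifitm2, Zbp1, Ifitm3, Irf7, Isg15 and Trim25) and 1, Dtx3l, lower. These are counts of members alone, and the shares of all genes called in these refits are not given here.

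The direction in germ-free mice also depended on the scaling. Scaled by library totals alone, the median over all genes in GF MQ against SPF MQ became -0.99 and that of the members -0.32. No member was then called higher and 10 were called lower: Dtx3l, Irf1, Eif2ak2, Ifih1, B2m, Cmpk2, Irf8, Gbp7, Parp9 and Isg20. Under library totals Ifitm2 was -0.05, Trim25 -0.41 and Tapbp -0.49, so these 3 changed sign. Relative to the median of all genes, the members were higher under both scalings, by their medians. A change of scaling moves all genes by about the same amount, so this gap is not a separate check. The share of all genes called under library totals is not given here. Size factors of the DESeq2 type and TMM factors computed without Defa genes each gave 12 higher and 1 lower.

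**Figure D4:**
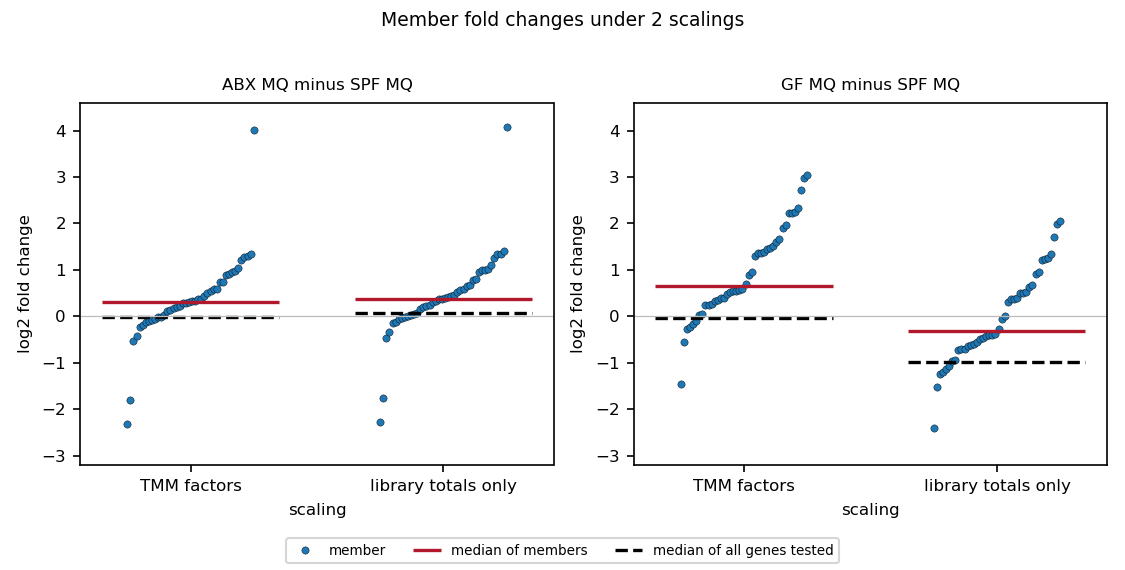
Log2 fold changes of the 42 tested members (points, sorted) under TMM factors and under library totals alone, for ABX MQ minus SPF MQ (left) and GF MQ minus SPF MQ (right), with the median of members (solid red) and of all genes tested (dashed black). In germ-free mice the median of members goes from 0.64 to -0.32 and that of all genes from -0.03 to -0.99.

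Germ-free and antibiotic-treated mice were then compared with each other on Milli-Q water, with the same ABX MQ and GF MQ libraries as above. Of the 42 tested members, 9 were higher in GF MQ, against 12.5% of all genes, and 3 were lower, against 9.70% of all genes. The higher ones were Zbp1 (1.40), Ifitm2 (0.57), Trim25 (0.56), Irf7 (2.02), Isg15 (2.71), Bst2 (1.50), Oas1a (1.69), Ifit1 (4.29) and Isg20 (0.78). Ifit1 had only 5, 1, 0 and 0 counts in ABX MQ, and its fold change depends on the prior count. The 3 lower ones were Irf1, Gbp7 and Nlrc5, which fell by 0.61, 2.36 and 2.57 (edgeR quasi-likelihood, adjusted p = 0.00535, 0.0172 and 0.0246). Without GF MQ replicate 2, 4 members were called in all, and under library totals 1 was called higher and 22 lower, with medians of -0.77 for members and -1.05 for all genes.

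The second question was whether zinc lowered these genes. In SPF mice no tested member was called, against 0.138% of all genes. None of the 42 reached an unadjusted p under 0.05 in edgeR's quasi-likelihood test, and DESeq2 and limma-voom called 0 as well. The median was -0.01 for members and -0.02 for all genes. Irf7 was 7.98, 11.9 and 8.18 CPM in SPF Zn and 6.20, 14.0 and 8.99 in SPF MQ. Irf1 was 46.4, 50.9 and 45.1 CPM against 41.7, 50.7 and 50.3. The ranges overlapped for both genes, and fold changes over the members ran from -0.63 to 1.58 with a median SE of 0.36. Small differences were thus not detectable at this size, and in some members neither was a difference as large as 1.58.

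After antibiotics, 6 of 7 class I presentation members were called lower on zinc, while none of 16 further genes of that pathway was. Of the 42 tested members, 9 were called lower and none higher, which is 21.4% called, against 21.7% of all genes called in either direction and 11.5% called lower. The median was -0.43 for members and 0.01 for all genes, and 37 of 42 were negative. All ABX Zn libraries lay below all ABX MQ libraries in 13 of 42 members, and in 13.6% of all genes. The presentation members called lower were Nlrc5, Tap1, Tap2, Tapbp, Psmb8 and Psmb9, and B2m was not called (-0.16, adjusted p = 0.288). The other 3 were Irf1, Ifitm3 and Gbp7.

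Irf1, a factor that drives several presentation genes (chr11:53660812-53669200), was 68.6, 62.9, 74.2 and 64.3 CPM in ABX MQ and 35.9, 38.7, 30.4 and 35.0 in ABX Zn. No library of one group came near the other, and Irf1 fell by 0.95 ± 0.13 (SE; edgeR quasi-likelihood, adjusted p = 0.000792). Tap2 was 12.4, 12.6, 10.6 and 11.5 CPM in ABX MQ and 4.70, 5.19, 4.91 and 4.44 in ABX Zn. It fell by 1.28 ± 0.21 (adjusted p = 0.00114), again without overlap. Nlrc5 was 3.95, 3.74, 5.56 and 2.48 CPM in ABX MQ and 0.371, 0.411, 0 and 1.37 in ABX Zn, on 51 to 116 and 0 to 21 counts, and fell by 2.86 ± 0.68 (adjusted p = 0.00633).

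Tapbp fell by 0.57 ± 0.14 (SE; edgeR quasi-likelihood, adjusted p = 0.00904) and Tap1 by 0.92 ± 0.25 (adjusted p = 0.0126). Ifitm3 was 43.1, 53.6, 52.1 and 41.6 CPM in ABX MQ and 18.6, 32.2, 19.6 and 32.2 in ABX Zn, and fell by 0.89 ± 0.22 (adjusted p = 0.00798). Psmb8 was 26.1, 29.1, 29.1 and 30.4 CPM against 12.6, 9.05, 6.80 and 26.9, so that ABX Zn replicate 4 overlapped ABX MQ. It fell by 1.06 ± 0.32 (adjusted p = 0.0219), Gbp7 by 1.51 ± 0.52 (adjusted p = 0.0403) and Psmb9 by 0.75 ± 0.26 (adjusted p = 0.0418).

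Psmb9, Tap1, Psmb8 and Tap2 lie side by side in the MHC on chromosome 17, from 34400960 to 34435829 (GRCm39), and Tapbp lies at 34134873 to 34148267. Psmb9 and Tap1 overlap at their ends on opposite strands, so their counts may be shared where counting ignored strand. Tapbp overlaps Zbtb22 on the same strand, so its counts are uncertain whether or not counting used strand. Irf1, Tap2, Nlrc5, Ifitm3 and Tapbp were called whichever of the 8 libraries was left out. Tap1 lost the call without ABX MQ replicate 2, Psmb8 in 5 of 8 fits, Gbp7 in 6 of 8 and Psmb9 in 7 of 8. Without ABX MQ replicate 2, 5 members were called. The macrophage marker Cd68 was 2.24 to 6.42 CPM in ABX MQ and 0.565 to 1.11 CPM in ABX Zn, while the 10 myeloid markers summed to 8.21 to 19.5 CPM and 4.42 to 10.7 CPM. Of these 10, 4 could be tested and 1, Cd68, was called lower, and its part in the result was not tested.

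Of the remaining members, Irf7 was 11.3, 9.97, 6.46 and 6.65 CPM in ABX Zn, overlapping ABX MQ (-0.39, adjusted p = 0.654 by edgeR's quasi-likelihood test). Isg15 was 0.681, 0.308, 0.0673 and 0.848 CPM (-0.14, adjusted p = 0.924). Stat2 and Irf9, subunits of the ISRE-binding complex, had all ABX Zn libraries below all ABX MQ libraries but did not pass (-0.51, adjusted p = 0.114, and -0.77, adjusted p = 0.0639). Oasl2 was 1.98, 3.86, 0.606 and 1.50 CPM against 6.40, 6.36, 7.24 and 5.54, separate as well, with an adjusted p of 0.116. Irf9 was called lower by DESeq2, and Irf9, Stat2 and Oasl2 were called lower by limma-voom, without the count filter and in the fit of the compared groups alone.

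In germ-free mice zinc was accompanied by 1 called member, Ifitm2, which was lower, against 5.47% of all genes called lower. Ifitm2 was 51.5, 57.2 and 71.0 CPM in GF MQ and 31.9, 32.0, 34.2 and 44.5 in GF Zn, and it fell by 0.75 ± 0.14 (SE; edgeR quasi-likelihood, adjusted p = 0.00924), but the adjusted p was 0.0630 without GF MQ replicate 2. The median was -0.26 for members and -0.02 for all genes. The result turned on 2 libraries. Irf7 was 15.3, 14.2, 6.72 and 88.5 CPM in GF Zn, with replicate 4 near the 99.0 CPM of GF MQ replicate 2. Isg15 was 0.194, 0.546, 0.825 and 9.13 CPM. Without GF Zn replicate 4, 16 members were called lower: Ifitm2, Oasl1, Oas1a, Xaf1, Stat2, Bst2, Irf7, Oasl2, Oas2, Isg15, Igtp, Ifitm3, Dhx58, Oas3, Psmb8 and Ifit1. Without GF MQ replicate 2 none was called, and with both left out 4 were called lower. The shares of all genes called in these refits are not given here. Whether members moved more than other genes can therefore not be read from these counts.

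Averaged over the 3 contexts, zinc went with 5 of 42 members called lower, against 11.2% of all genes. These were Tap2, Ifitm2, Irf1, Tapbp and Ifitm3, which fell by 0.63, 0.36, 0.38, 0.33 and 0.43 (edgeR quasi-likelihood, adjusted p = 0.00344, 0.00474, 0.00479, 0.0145 and 0.0313). The median was -0.18 for members and -0.01 for all genes. Without GF Zn replicate 4, 18 members were called, and without GF MQ replicate 2 as well, 13, here too without the share of all genes.

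**Figure D5:**
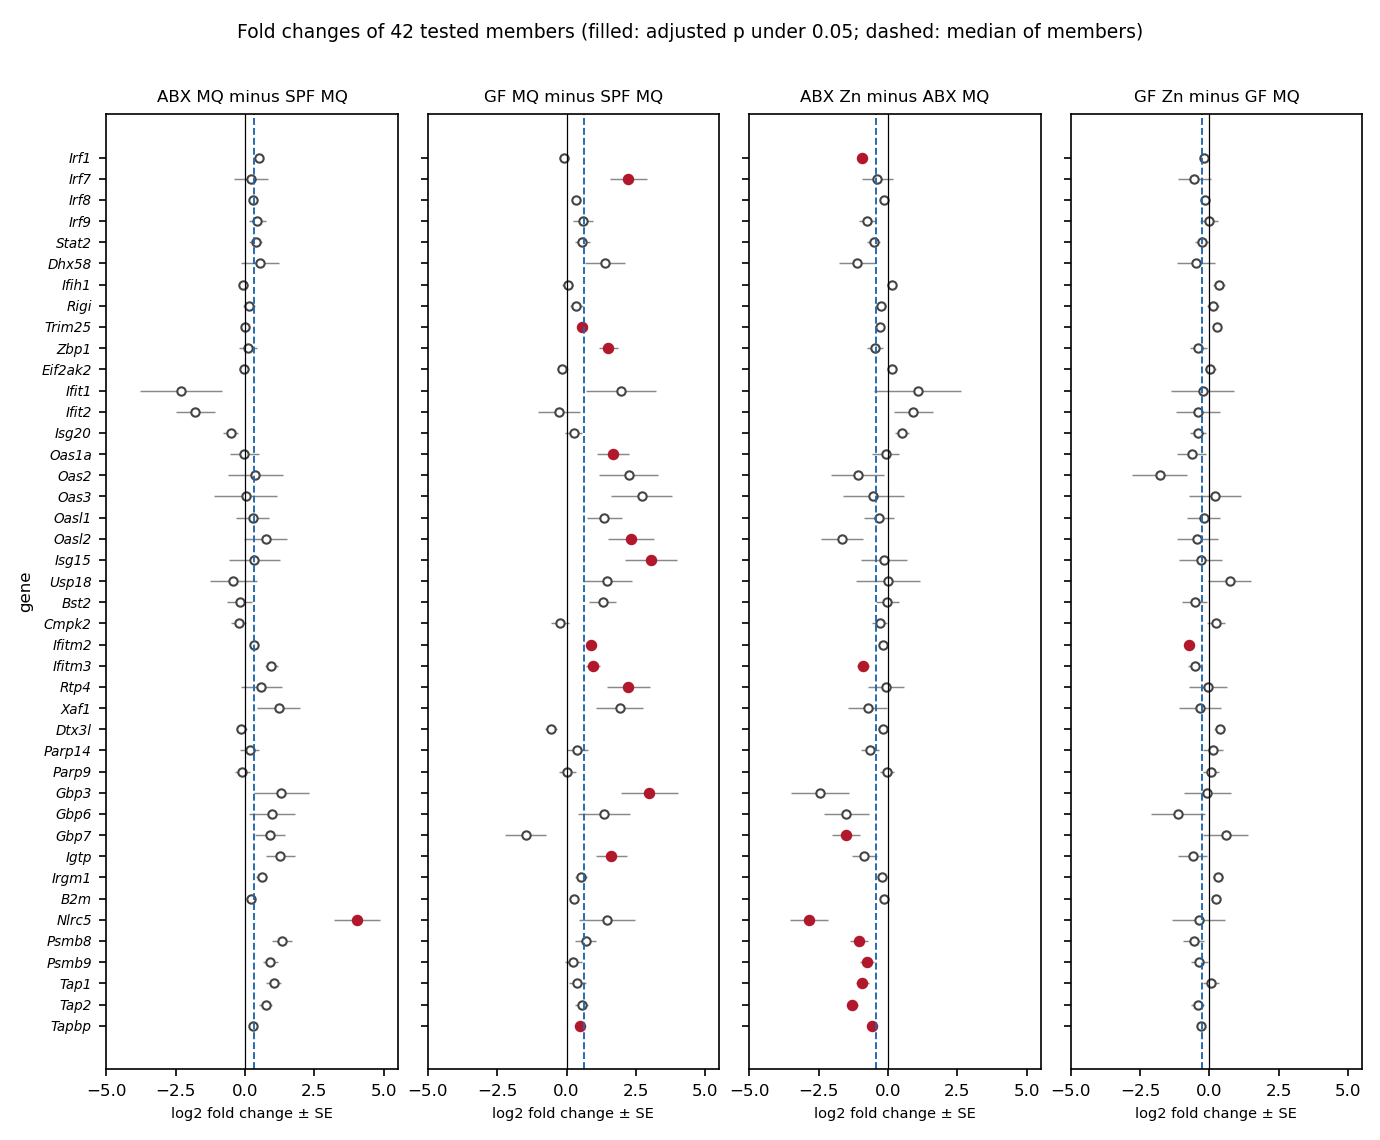
Log2 fold change with SE of the 42 tested members in 4 comparisons, filled in red where the adjusted p was under 0.05, with the median of members dashed. Filled points on the right are 1 in ABX MQ minus SPF MQ and 12 in GF MQ minus SPF MQ, and on the left 9 in ABX Zn minus ABX MQ and 1 in GF Zn minus GF MQ. The panels share the ABX MQ, SPF MQ and GF MQ libraries.

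Whether the zinc effect differed between contexts was tested directly. Between antibiotics and SPF no member and none of the genes tested was called by edgeR's quasi-likelihood test (0% of all genes), although 12 members had an unadjusted p under 0.05. DESeq2 called 3 members and limma-voom 7, each lower after antibiotics. The members with the smallest adjusted p were Irf1 (-0.94, adjusted p = 0.107), Tap2 (-1.11, adjusted p = 0.116), Nlrc5 (-4.05, adjusted p = 0.116) and Ifitm3 (-1.04, adjusted p = 0.134). Between germ-free and SPF no member was called (0% of all genes), with 1 member at an unadjusted p under 0.05, and DESeq2 called 0 and limma-voom 1. Between germ-free and antibiotics no member was called, against 0.207% of all genes, with 9 members at an unadjusted p under 0.05, and DESeq2 called 1 and limma-voom 2. The zinc effect on the members was thus past the threshold after antibiotics and not in SPF mice, and edgeR's test of the difference between contexts did not pass for any member.

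On zinc water, few members were called for loss of microbes, as were few of all genes. After antibiotics 1 of 42, Trim25, was lower than in SPF Zn, against 4.21% of all genes, and fell by 0.56 (edgeR quasi-likelihood, adjusted p = 0.0153). It was 43.0 to 50.8 CPM in ABX Zn and 66.8 to 69.7 in SPF Zn. The median was -0.17 for members and -0.002 for all genes, and 30 of 42 members were negative, against 50.1% of all genes. Members with an unadjusted p under 0.05 in that test numbered 7 of 42, against 25.8% of all genes. In germ-free mice 2 of 42 were higher, against 3.47% of all genes: Trim25 (0.57, adjusted p = 0.0185), at 101, 98.3, 80.9 and 123 CPM, and Irgm1 (0.65, adjusted p = 0.0453). The median was 0.31 for members and 0.002 for all genes, and 8 of 42 members were negative, against 49.8% of all genes. An unadjusted p under 0.05 in the same test was found for 12 of 42, against 23.5% of all genes. Under library totals 1 member was higher and 3 lower, with medians of -0.28 for members and -0.61 for all genes, and Trim25 was -0.04. B2m was 226, 222, 212 and 250 CPM in GF Zn and 194, 166 and 172 in SPF Zn, separate but not called (0.36, adjusted p = 0.0616).

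Between germ-free and antibiotic-treated mice on zinc, 11 of 42 members were higher in GF Zn and none lower, against 7.06% of all genes higher. Trim25 (1.13, adjusted p = 2.16e-05 by edgeR's quasi-likelihood test), Zbp1 (1.46, adjusted p = 0.00263) and B2m (0.44, adjusted p = 0.00705) were called also without GF Zn replicate 4. The other 8 (Gbp3, Oasl2, Oas3, Usp18, Irf7, Isg15, Tap2 and Tapbp) were not called without that library. Of these, Oas3 reached the count minimum in 4 libraries, 1 of SPF MQ, 2 of GF MQ and 1 of GF Zn, and in 0 of either antibiotic group. Its place among the members thus depended on germ-free libraries, so its call is not independent of how members were kept. Under library totals 7 members were higher and 8 lower, with medians of -0.11 for members and -0.74 for all genes.

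The rest of the pathway was taken from lists of genes that are not members. Of 12 listed ligands 11, among them Ifnb1, Ifng, Ifnl2 and Ifnl3, had 0 counts in all 21 libraries, and Il18, a cytokine that induces interferon-γ, was the 1 with reads. Among receptor and kinase genes, Il10rb was higher in GF MQ than in SPF MQ (0.65, adjusted p = 0.00110 by edgeR's quasi-likelihood test), and Jak2 (-0.47) and Ifngr2 (-0.43) were lower. Among all genes in this comparison, 24.3% were called in either direction and 12.7% were called higher. Of 25 tested further interferon-stimulated genes 5 were higher and none lower, led by Ly6e (1.57), Ogfr (1.07) and Ifi27 (1.52). Of 11 tested adaptors and upstream factors 2 were higher, Irf3 (0.75) and Sting1 (0.95), and 2 were lower, Cgas (-1.06) and Tlr3 (-0.88). Of 16 further class I presentation genes 3 were higher, led by H2-K1 (0.96), and 1 was lower.

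With zinc after antibiotics, 3 of 25 further interferon-stimulated genes were lower, Trim21 (-0.72), Parp10 (-0.74) and Gbp9 (-2.75). This was near the share of all genes called lower, 11.5%, where 21.7% were called in either direction. Of 11 adaptors 3 were lower, the kinase Ikbke (-1.08), the Toll-like receptor adaptor Myd88 (-0.69) and Irf3 (-0.43), and among receptor and kinase genes Tyk2 (-0.61) was lower. The negative regulator Socs3 was lower (-1.18, adjusted p = 0.00766 by edgeR's quasi-likelihood test). Of the 16 further presentation genes, which summed to 1794 to 2098 CPM in ABX MQ and 2042 to 2408 CPM in ABX Zn, none was lower and 3 were higher, the endoplasmic reticulum chaperones Pdia3 (0.54), Calr (0.46) and Canx (0.50).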

How the data were processed

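Paneth cells were sorted by FACS from mouse small intestine, and total RNA was made into stranded mRNA libraries. The authors deposited raw counts per Ensembl gene for the 21 libraries, with no normalisation. Columns were assigned to samples through their names, and the number of columns not used was 0. The submitters' processing notes name FastQC 0.12.0, STAR 2.7.0a, DESeq2 and the build mm39. The counting tool and its use of strand are not given in the sources used here. Symbols and coordinates came from GENCODE M39 (GRCm39), which matched 54749 of 55414 identifiers, and the 665 others held 0.0164% of counts.

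Differences were tested in R 4.3.3 with quasi-likelihood F-tests of edgeR 4.0.16, which loads limma 3.58.1, in 1 fit over the 6 groups, with TMM factors and filterByExpr, and adjusted by Benjamini-Hochberg over the 13070 genes tested in each of 13 comparisons, at a threshold of 0.05. Comparisons share libraries. P-values measure the spread between these libraries. CPM is scaled by TMM, and TPM by exon length and library. The scripts were tested on simulated data. Alternatives were other size factors, library totals, DESeq2 1.42.0, limma-voom, other count filters, a fit of the groups compared alone, a replicate block and leaving out each library. For these alternatives only the members called are counted, without the share of all genes called.

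The members and lists were chosen with earlier results of these data known. Every kept member could be named. Values per library are given for up to 6 called members with the smallest adjusted p in a comparison and for Isg15, Ifit1, Irf7, Stat2, Rigi, Gbp2, Psmb8 and B2m, while other members were named for contrast after their values were seen. Of the other pathway genes, those past the threshold were named, up to about 3 a list. One gene of the pathway lists is not reported here.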

Additional observations from a re-analysis of the deposited data

Results flagged for a closer look

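In groups of 4 libraries, a library was set apart when its gap to the nearest other library, divided by the range of the group, exceeded Dixon's critical value. Of 132 member and group pairs tested this way, 21 were set apart. No rate expected by chance is given, because members vary together within a library. Some also lie at the floor, such as Gbp3, at 0 CPM in the other ABX Zn libraries. The share over all genes was not computed. In 16 of them GF Zn replicate 4 was the highest library, with Irf7 at 88.5 CPM, Ifitm3 at 49.4, Oasl2 at 45.7, Oas1a at 35.6, Bst2 at 25.0, Rigi at 21.3, Psmb8 at 21.2, Oasl1 at 17.7, Rtp4 at 11.8, Isg15 at 9.13, Oas3 at 8.50, Igtp at 8.28, Xaf1 at 7.97, Oas2 at 6.05, Ifit1 at 5.10 and Rsad2 at 2.34 CPM. This library also had the highest sum of enterocyte markers of any library, 1815 CPM, whose part was not tested. In ABX Zn, B2m stood out at 191 CPM in replicate 4, Isg20 at 8.85 and Gbp3 at 0.371 in replicate 1, Ifit1 at 0.514 in replicate 2 and Oas1a, as the lowest, at 3.84 CPM in replicate 3. The rule was not applied to groups of 3 libraries, among them GF MQ with its replicate 2.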

How the results depend on the processing

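Over the 54 called pairs of a member and a comparison, 507 values under other settings kept the call in 418, lost it in 79 and reversed it in 10, all under library totals. Of 456 values with 1 library left out, 315 kept the call, 141 lost it and none reversed. The reversed values were -0.054 for Ifitm2, -0.41 for Trim25 and -0.49 for Tapbp in GF MQ against SPF MQ, -0.037 for Trim25 in GF Zn against SPF Zn, -0.26 for Isg20, -0.47 for Ifitm2 and -0.47 for Trim25 in GF MQ against ABX MQ, and -0.30 for B2m, -0.31 for Tapbp and -0.062 for Tap2 in GF Zn against ABX Zn. Library totals moved the median of all genes tested to -0.99 in GF MQ against SPF MQ, and to -0.23 for zinc in SPF and -0.15 for zinc after antibiotics.

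Counts of called members moved with the setting. The share of all genes called under each setting is not given here, so the counts do not show whether members moved more than other genes. For zinc after antibiotics (9), limma-voom gave 15, no filter 15 and the compared groups alone 14. For zinc in germ-free mice (1), library totals gave 0, limma-voom 10, no filter 4 and the compared groups alone 0. For zinc averaged (5), limma-voom gave 13 and no filter 11. For antibiotics on Milli-Q water (1), DESeq2 gave 3, limma-voom 2, no filter 7, a minimum of 10 counts in 10 libraries 0 and the compared groups alone 5. For germ-free on Milli-Q water (12), limma-voom gave 22 and no filter 19. For antibiotics on zinc (1), size factors of the DESeq2 type gave 2, library totals 0, DESeq2 2, limma-voom 4, no filter 5, the stricter minimum 2 and the compared groups alone 6. For germ-free on zinc (2), DESeq2-type factors gave 1, library totals 4, no filter 12 and the compared groups alone 0. For GF MQ against ABX MQ (12), library totals gave 23, no filter 20 and the compared groups alone 19. For GF Zn against ABX Zn (11), limma-voom gave 4, the stricter minimum 7 and the compared groups alone 2. For the zinc effect after antibiotics minus that in SPF (0), DESeq2 gave 3, limma-voom 7, no filter 9 and the compared groups alone 5. For that in germ-free minus SPF (0) limma-voom gave 1, and for germ-free minus antibiotics (0) DESeq2 gave 1, limma-voom 2 and no filter 3. The cause of these differences was not tested.

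With GF MQ replicate 2 and GF Zn replicate 4 both left out, a choice made after seeing the data, the counts were 4 for zinc in germ-free mice, 13 averaged, 7 for GF MQ against SPF MQ, 1 for GF Zn against SPF Zn, 6 for GF MQ against ABX MQ and 3 for GF Zn against ABX Zn. Leaving out 1 library at a time gave 0 to 0 for zinc in SPF, 5 to 8 after antibiotics, 0 to 16 in germ-free mice and 4 to 18 averaged, 0 to 1 for antibiotics and 3 to 15 for germ-free on Milli-Q water, 0 to 2 and 0 to 3 on zinc, 4 to 14 and 3 to 16 for germ-free against antibiotics on Milli-Q water and zinc, and 0 to 0, 0 to 3 and 0 to 1 for the differences of zinc effects.

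Replicate numbers of the sample titles gave no sign of pairing: deviations of same-numbered libraries correlated from -0.386 to 0.229, with a median of 0.017. In GF MQ these numbers differ in part from those in the column names of the counts, and a pairing by the latter was not tested. With the replicate number as a block, the counts were 0, 9, 2 and 7 for zinc in SPF, after antibiotics, in germ-free mice and averaged, 0 and 14 for antibiotics and germ-free on Milli-Q water, 1 and 1 on zinc, 12 and 6 for germ-free against antibiotics, and 0 for each difference.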

Other observations

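Among the genes that missed the count minimum, Mx2 and Ifit3 had their highest levels in the germ-free libraries that stood apart. Mx2, a dynamin-like antiviral GTPase, was 4.04 CPM (38 counts) in GF Zn replicate 4 and 2.51 CPM (17 counts) in GF MQ replicate 2, and at most 0.774 CPM in every other library. Ifit3 was 2.66 CPM (25 counts) and 1.33 CPM (9 counts) in these libraries. Mx1 was 1.94 CPM (38 counts) in SPF MQ replicate 2, and at most 5 counts in every other library.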
